A study of Homo sapiens with 12 samples.

Results

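The 58 genes described here encode RNA polymerase I subunits and factors, nucleolar proteins, small nucleolar ribonucleoproteins and assembly factors of the ribosome. The rule was a list of gene symbols with no threshold on a measured value, but the list was drawn up with earlier results of these data known. The count files held all 58 among 23228 genes, and all 58 passed the filter on low counts, which left 14189 genes for testing. To evaluate how PI3K and EZH2 inhibition change this gene group, polyA RNA-seq was compared across treatments of C4.2B cells. C4.2B is an established human prostate cancer line that grows without androgen. The 12 libraries formed 4 arms of 3 replicates (A, B and C), and every arm was kept for 24 h in medium with 10% charcoal-stripped serum, which is depleted of steroid hormones. Cells received vehicle alone (DMSO), 0.5 µM of GDC-0941, a pan-inhibitor of PI3K (GDC), 5 µM of GSK126, an inhibitor of the histone methyltransferase EZH2 (GSK), or the 2 agents together (COMBO). GSK126 was started 6 days before the 24 h, so in GSK and COMBO the agent and its longer exposure cannot be told apart. The study plated the cells in triplicate after the GSK126 pretreatment, so p-values measure the spread between plates of 1 cell line.

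Ribosomes are built in the nucleolus, where RNA polymerase I transcribes the precursor of most ribosomal RNA. Box C/D and box H/ACA particles guide methylation and pseudouridylation of that precursor, the small subunit processome folds and cleaves it, and separate sets of GTPases, helicases and scaffold proteins then assemble the 40S and 60S subunits. Growing tumour cells need this pathway, and the transcription factor MYC, which binds the E-box CACGTG, is known as one of its activators.

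The promoter windows of the genes are described first, although they were read after the comparisons that follow were run. RefSeq windows on GRCh38.p14, 300 bases each and running from 250 bases before the gene start, were matched for 49 of the 58 genes. BOP1, TCOF1, RRP12, POLR1E, RRS1, NOP58, DDX18, NOLC1 and RRP1B had no window. The hexamer CACGTG, which reads the same on both strands, was in 18 of the 49 windows (36.7%), compared with 990 of 9661 windows of tested genes (10.2%) and 7.43% of all 27305 windows. Within 50 bases of the start it was in 16 of the 49 (32.7%) and in 394 of the 9661 (4.08%). These shares are a description of letters and show no binding. Shown here are the hexamers near the start of the genes whose values are given in full, with NOP10 included because it was the gene that rose in GSK. Each line runs 5′ to 3′ on the gene's own strand, with the hexamer in capitals.
NOP2, chr12:6568242-6568268 (minus strand): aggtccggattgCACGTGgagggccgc
MRTO4, chr1:19251807-19251836 (plus strand): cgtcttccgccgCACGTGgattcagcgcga
WDR43, chr2:28894658-28894687 (plus strand): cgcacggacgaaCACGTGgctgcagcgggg
LTV1, chr6:143843354-143843383 (plus strand): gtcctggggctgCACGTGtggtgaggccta
PNO1, chr2:68157885-68157914 (plus strand): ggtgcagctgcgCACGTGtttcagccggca
RRP9, chr3:51941892-51941921 (minus strand): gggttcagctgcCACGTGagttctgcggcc
IMP4, chr2:130342900-130342929 (plus strand): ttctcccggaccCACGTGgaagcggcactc
NOP10, chr15:34343130-34343159 (minus strand): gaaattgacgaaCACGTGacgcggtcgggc
The hexamer began 35 bases after the RefSeq start in NOP2, 14 in MRTO4, 3 in WDR43, 28 in LTV1, 9 in PNO1 and 15 in IMP4. In RRP9 it began 5 bases before the start, and in NOP10 11 bases before it.

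Gene counts ranged from 8785218 to 44437751 per library. The 8 luminal prostate markers used (KLK2, KLK3, HOXB13, TMPRSS2, FOLH1, STEAP2, KRT8 and KRT18) were present in every arm, summing to 3497 to 3647 CPM (read counts scaled for library size) with DMSO, 4919 to 5036 with GDC, 4385 to 4761 with GSK and 5527 to 5916 with COMBO. The 10 markers of other cell types summed to 21.7 to 24.8 CPM with DMSO, 24.1 to 28.6 with GDC, 46.9 to 58.6 with GSK and 43.5 to 64.2 with COMBO. COL1A1 took 10.1 to 11.3 CPM of this in DMSO and 27.5 to 45.9 in COMBO, and the T cell gene CD3E had 0 counts in all 12 libraries. Reads outside genes also moved with the arms, from 14.2% in DMSO to 15.6% in GDC, 18.8% in GSK and 21.8% in COMBO on average, and the part of this in the results was not tested.

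All 3 inhibitor arms had lower levels of the ribosome biogenesis genes than DMSO, slightly so in GDC and strongly in GSK and COMBO. The summed level of the 58 genes was 11760 ± 119 CPM with DMSO, 10040 ± 150 with GDC, 5597 ± 127 with GSK and 4953 ± 109 with COMBO (mean ± SD, n = 3), which is 1.10%, 0.960%, 0.581% and 0.534% of gene counts. The 4 arms did not overlap in this sum. In bulk libraries, fewer cells of a type and less RNA per cell cannot be told apart, and all values are relative to the other RNAs of the library.

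In GDC, 45 of the 58 genes fell and 1 rose compared with DMSO, where 20.0% of all tested genes were lower and 20.0% higher (edgeR quasi-likelihood test, adjusted p under 0.05 over 14189 genes). The median log2 fold change was -0.25 with quartiles of -0.34 and -0.16, beside a median of 0.016 over all genes. The 12 genes that did not pass the test were POLR1A, UBTF, RRN3, TAF1D, NOP10, IMP3, NOB1, BOP1, WDR12, GNL3, GNL3L and PPAN. Of these, DESeq2 called RRN3, IMP3, WDR12 and GNL3 lower in GDC (adjusted p = 0.0149, 0.023, 0.0392 and 0.00202). In GSK, 57 genes fell and 1 rose, beside 35.7% and 40.0% of all genes. The median of the 58 was -1.05 (0.485 of the DMSO level, quartiles -1.20 and -0.86) and that of all genes 0.058, and 34 of the genes fell by more than 1 on the log2 scale. In COMBO, 57 genes fell and 0 rose, beside 39.2% and 43.3% of all genes, with a median of -1.29 (0.409 of the DMSO level, quartiles -1.54 and -0.95) against 0.054 over all genes. By the same test at an unadjusted p under 0.05, 0 genes were higher in COMBO, and DESeq2 also called 0. The plot of all 58 genes by library shows how evenly the replicates of an arm moved.

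**Figure D1:**
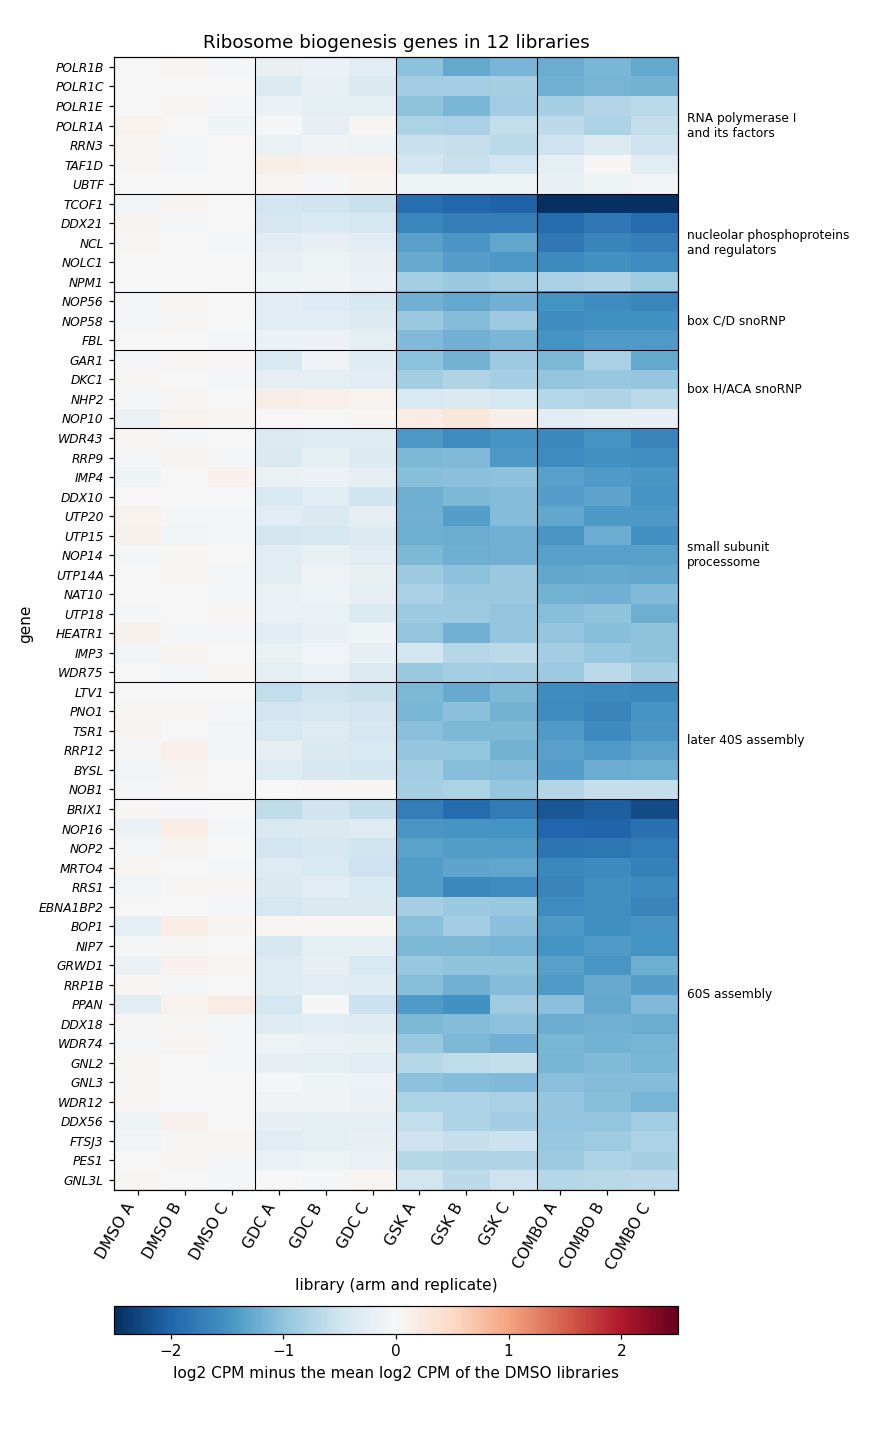
Each row is 1 of the 58 genes, grouped by role and ordered by its change in COMBO, and each column is 1 library. Colour gives log2 CPM minus the mean of the 3 DMSO libraries, blue being lower and red higher. TCOF1 is the darkest row in COMBO, and NOP10, TAF1D and UBTF stay pale there.

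The RNA polymerase I group had 3 of its 7 genes lower in GDC, 7 in GSK and 6 in COMBO, with median log2 fold changes of -0.12, -0.73 and -0.68. POLR1B, the second largest subunit of the enzyme, had 113, 115 and 112 CPM with DMSO, 99.8, 102 and 94.1 with GDC, 55.9, 46.5 and 50.5 with GSK and 48.2, 51.2 and 46.5 with COMBO. GDC lowered it (log2 fold change -0.20 ± 0.0564 SE, adjusted p = 0.00753), as did GSK (-1.16 ± 0.0612, adjusted p = 1.16e-12) and COMBO (-1.22 ± 0.0586, adjusted p = 1.13e-13), and its GSK and COMBO libraries overlapped. POLR1C, a subunit that RNA polymerases I and III share, was at 62.1, 63.3 and 62.1 CPM with DMSO, 49.1, 54.8 and 48.5 with GDC, 34.3, 34.5 and 35.0 with GSK and 27.3, 28.1 and 27.6 with COMBO, without overlap between any arms. Its log2 fold change was -0.85 in GSK and -1.18 ± 0.0562 in COMBO (adjusted p = 9.96e-14). POLR1C exons overlap those of XPO5 and YIPF3 on the other strand, and since the use of strand in counting was not stated, its counts are uncertain.

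UBTF, TAF1D and RRN3 act in bringing the polymerase to its promoter. UBTF, an HMG-box protein that binds ribosomal DNA, had 195, 196 and 191 CPM with DMSO, 197, 190.3 and 202 with GDC, 179, 179 and 178 with GSK and 169, 178 and 184 with COMBO. Its log2 fold change was -0.12 with GSK (adjusted p = 0.0219) and -0.13 ± 0.0432 with COMBO (adjusted p = 0.00906), but with libraries scaled by their totals alone these were 0.038 and 0.077 (adjusted p = 0.43 and 0.0947), so no direction is given for UBTF, although it is counted among the genes that fell. Without GSK library C its adjusted p in GSK was 0.0557. TAF1D, a subunit of the promoter selectivity factor SL1, had 46.9, 45.3 and 45.7 CPM in DMSO and 50.6, 49.8 and 49.4 in GDC. It was at 33.2, 31.3 and 32.9 CPM in GSK and 39.5, 46.8 and 38.4 in COMBO, where library B lay within the DMSO range. TAF1D fell in GSK (-0.50 ± 0.0704, adjusted p = 2.28e-06), and it was the single gene of the 58 that did not pass the test in COMBO (-0.13 ± 0.0645, adjusted p = 0.0618). Without COMBO library B its change was -0.235 with an adjusted p of 0.00103, and with library totals it was 0.073. TAF1D lies at chr11:93729948-93784391 on the minus strand (GENCODE 44, hg38), holds 8 snoRNA genes, and overlaps exons of C11orf54 and MED17 on the other strand. RRN3, which links the polymerase to SL1, fell to a log2 fold change of -0.60 in GSK and -0.45 in COMBO, and POLR1E and POLR1A to -0.74 and -0.68 in COMBO.

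Nucleolar phosphoproteins and regulators fell in all 3 arms, each of the 5 genes passing the test each time, with medians of -0.24, -1.37 and -1.71. With library totals NPM1 did not pass it in GDC (-0.0832, adjusted p = 0.069). TCOF1 encodes treacle, a scaffold of ribosomal RNA transcription, at chr5:150357629-150400308 on the plus strand, and it had 239.9, 263 and 249 CPM with DMSO, 181, 178 and 171 with GDC, 68.1, 63.9 and 61.8 with GSK and 39.8, 41.2 and 44.8 with COMBO. The arms followed each other with no overlap, and of the 58 genes TCOF1 had the largest change in both GSK and COMBO. Its log2 fold change was -0.51 ± 0.0506 with GDC (adjusted p = 2.86e-07), -1.96 ± 0.0555 with GSK (adjusted p = 2.07e-16) and -2.58 ± 0.0560 with COMBO (adjusted p = 6.88e-19), which left 0.167 of the DMSO level. DDX21, an RNA helicase that acts with RNA polymerases I and II, had 884, 817 and 838 CPM with DMSO, 631, 649 and 623 with GDC, 271, 254 and 256 with GSK and 223, 246 and 223 with COMBO. It fell by a log2 fold change of -1.70 ± 0.0472 with GSK (adjusted p = 1.57e-16) and -1.88 ± 0.0470 with COMBO (adjusted p = 4.76e-18). The 2 arms differed by -0.17 (adjusted p = 0.00487, or 0.0836 and 0.0739 without GSK library A and COMBO library A). Nucleolin (NCL), the snoRNP chaperone NOLC1 and nucleophosmin (NPM1) had log2 fold changes of -1.71, -1.56 and -0.81 in COMBO. NPM1 has 49 named pseudogenes in the annotation, so reads may be split among copies.

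**Figure D2:**
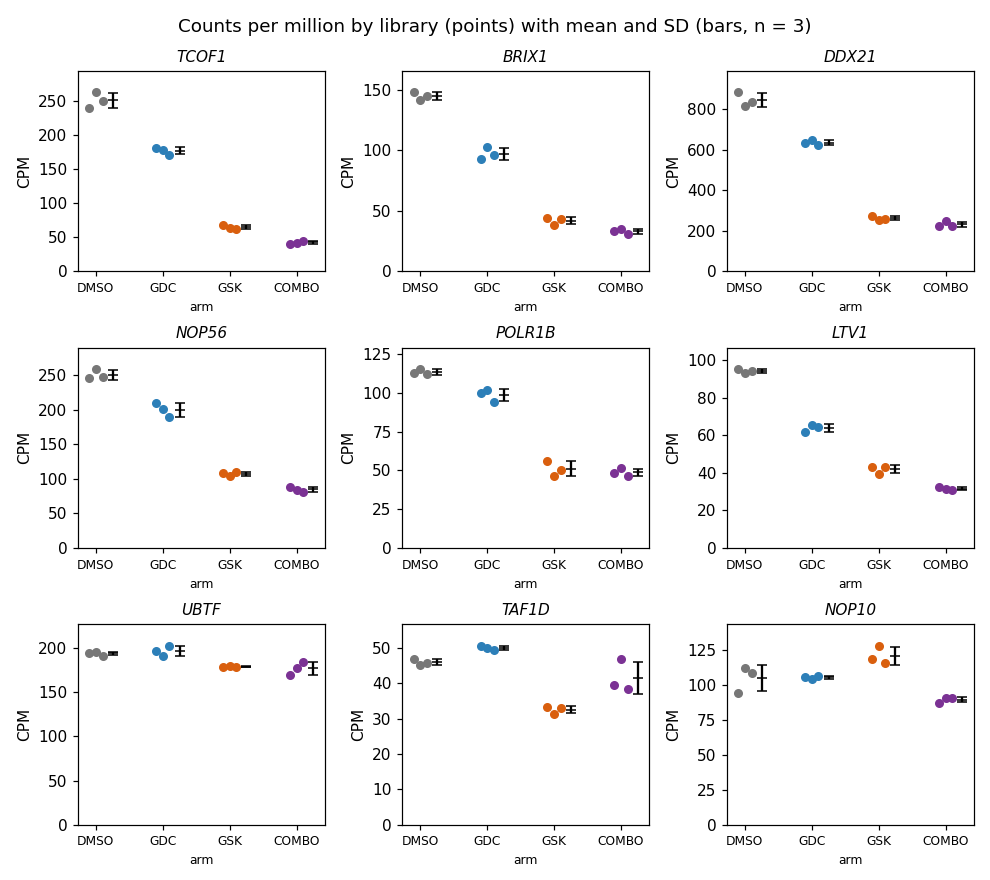
CPM of 9 of the genes in the 4 arms: points are libraries, and bars are the mean and SD of 3 libraries. TCOF1, BRIX1, DDX21, NOP56, POLR1B and LTV1 step down from DMSO through GDC to GSK and COMBO, whereas UBTF stays between 169 and 202 CPM, TAF1D is lowest in GSK and NOP10 is highest in GSK.

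The box C/D particle, which methylates ribosomal RNA at the 2′ oxygen of ribose, had all 3 proteins lower in each arm, with medians of -0.30, -1.15 and -1.53. NOP56, a core scaffold, had 246, 259 and 248 CPM with DMSO, 209.6, 201 and 189.6 with GDC, 109, 104 and 109 with GSK and 88.9, 84.3 and 80.6 with COMBO. Its paralog NOP58 had 227, 235 and 229.9 CPM with DMSO, 191, 191 and 181 with GDC, 122, 109 and 123 with GSK and 78.2, 80.8 and 81.2 with COMBO. Neither gene had overlapping arms, and the log2 fold changes in COMBO were -1.57 ± 0.0505 for NOP56 (adjusted p = 1.97e-16) and -1.53 ± 0.0501 for NOP58 (adjusted p = 2.63e-16). The methyltransferase FBL changed by -1.45 ± 0.0455 in COMBO.

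The box H/ACA particle converts uridines to pseudouridine, and its 4 proteins had calls in both directions. In GDC, 2 fell and 1 rose; in GSK, 3 fell and 1 rose; and in COMBO all 4 fell, with medians of -0.12, -0.61 and -0.84. GAR1 had 38.9, 41.3 and 41.2 CPM with DMSO, 31.1, 37.9 and 32.6 with GDC, 20.0, 17.8 and 21.7 with GSK and 18.6, 22.9 and 16.7 with COMBO, where the last 2 arms overlapped. Without DMSO library C, GDC library A or GDC library C, the adjusted p of GAR1 in GDC was 0.0617, 0.0714 or 0.0664. The catalytic subunit dyskerin (DKC1) had 258, 256 and 249 CPM with DMSO, 217, 217 and 211 with GDC, 139, 151 and 143 with GSK and 128, 133 and 129.5 with COMBO. Both fell in COMBO, GAR1 by a log2 fold change of -1.05 ± 0.0947 (adjusted p = 2.81e-09) and DKC1 by -0.97 ± 0.0431 (adjusted p = 3.18e-14).

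The other two H/ACA proteins, NHP2 and NOP10, were the genes called higher in a single-agent arm. NHP2 had 128, 136 and 134 CPM with DMSO, 147, 146 and 142 with GDC, 102, 103 and 98.5 with GSK and 80.9, 78.6 and 83.0 with COMBO. All GDC libraries lay above the DMSO libraries (0.12 ± 0.0448, adjusted p = 0.0361), but the call was lost in 16 of 19 alternatives, among them each fit without a DMSO or a GDC library, with adjusted p-values up to 0.532. NHP2 fell with GSK (-0.40, adjusted p = 1.93e-07) and more so with COMBO (-0.72 ± 0.0458, adjusted p = 9.92e-12). Its exons overlap those of RMND5B on the other strand. NOP10, at chr15:34339159-34343180 on the minus strand, had 94.6, 112 and 109 CPM with DMSO, 106, 105 and 106 with GDC, 119, 128 and 116 with GSK and 87.3, 90.7 and 90.7 with COMBO. It was thus highest in GSK and lowest in COMBO. NOP10 rose in GSK by 0.19 ± 0.0575 (adjusted p = 0.00491), and without DMSO library A or GSK library B the adjusted p was 0.136 or 0.142. It fell in COMBO by a log2 fold change of -0.24 ± 0.0570 (adjusted p = 0.000657), which was -0.034 with library totals (adjusted p = 0.592).

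The small subunit processome had 12 of 13 genes lower in GDC and all 13 lower in GSK and COMBO, with medians of -0.25, -1.05 and -1.36. WDR43, a subunit of the complex that first binds the ribosomal RNA precursor, had 184, 175 and 177 CPM with DMSO, 142, 143 and 145 with GDC, 65.9, 60.1 and 64.8 with GSK and 58.4, 63.6 and 56.7 with COMBO. RRP9, a protein of the U3 particle, had 57.5, 62.9 and 58.7 CPM with DMSO, 46.2, 51.2 and 47.3 with GDC, 27.4, 27.9 and 22.0 with GSK and 20.1, 20.8 and 20.6 with COMBO. IMP4, a partner of U3, had 76.0, 81.9 and 87.9 CPM with DMSO, 73.1, 73.9 and 69.0 with GDC, 39.3, 39.6 and 40.3 with GSK and 31.8, 30.8 and 29.7 with COMBO. In all 3 genes the inhibitor arms lay below DMSO without overlap, and the log2 fold changes in COMBO were -1.58 ± 0.0515 for WDR43 (adjusted p = 2.41e-16), -1.54 ± 0.0729 for RRP9 (adjusted p = 8.06e-14) and -1.42 ± 0.0585 for IMP4 (adjusted p = 8.65e-15). The other 10 genes (DDX10, UTP20, UTP15, NOP14, UTP14A, NAT10, UTP18, HEATR1, IMP3 and WDR75) fell by between -1.39 for DDX10 and -0.80 for WDR75 on the log2 scale in COMBO. IMP3 was the processome gene that did not pass the test in GDC (-0.15, adjusted p = 0.0619), although DESeq2 called it lower (-0.188, adjusted p = 0.023).

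Among the later factors of 40S assembly, 5 of 6 fell in GDC and all 6 in GSK and COMBO, with medians of -0.39, -1.07 and -1.43. LTV1, which holds the immature 40S subunit back from translation, had 95.2, 92.9 and 94.3 CPM with DMSO, 61.6, 65.5 and 64.2 with GDC, 43.0, 39.5 and 43.1 with GSK and 32.3, 31.4 and 30.7 with COMBO. PNO1, the partner of the nuclease NOB1, had 50.2, 50.2 and 47.6 CPM with DMSO, 35.3, 36.3 and 35.4 with GDC, 22.4, 23.8 and 21.6 with GSK and 16.6, 15.7 and 17.8 with COMBO. Both stepped down from arm to arm without overlap, with log2 fold changes of -0.56 ± 0.0490 in GDC and -1.58 ± 0.0516 in COMBO for LTV1 (adjusted p = 5.57e-08 and 2.48e-16), and of -0.46 ± 0.0592 and -1.57 ± 0.0635 for PNO1 (adjusted p = 5.56e-06 and 6.85e-15). NOB1 itself, the nuclease that makes the final cut of the small subunit RNA, had 88.3, 91.9 and 91.4 CPM with DMSO, 90.0, 92.3 and 91.9 with GDC, 51.0, 52.6 and 46.1 with GSK and 54.1, 59.7 and 59.7 with COMBO. NOB1 did not pass the test in GDC (0.01 ± 0.0531, adjusted p = 0.882), and its log2 fold change of -0.65 in COMBO was the smallest of the 6. TSR1, RRP12 and BYSL changed by -1.49, -1.37 and -1.28 in COMBO.

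The 60S assembly group was the largest, and 15 of its 20 genes fell in GDC and all 20 in GSK and COMBO, with medians of -0.28, -1.08 and -1.29. BRIX1, a factor of early 60S particles encoded at chr5:34915677-34925996 on the plus strand, had 148, 142 and 145 CPM with DMSO, 92.9, 103 and 95.6 with GDC, 43.6, 38.2 and 43.2 with GSK and 32.9, 34.4 and 30.9 with COMBO. It had the largest change of the 58 genes in GDC (-0.57 ± 0.0543, adjusted p = 1.44e-07) and the next largest after TCOF1 in GSK (-1.80 ± 0.0605, adjusted p = 1.79e-15) and COMBO (-2.14 ± 0.0591, adjusted p = 1.8e-17). NOP16 had 78.9, 97.1 and 85.7 CPM with DMSO, 66.8, 67.4 and 69.1 with GDC, 31.8, 31.3 and 30.9 with GSK and 22.0, 21.8 and 24.0 with COMBO, and its exons overlap ARL10 and HIGD2A on the other strand. NOP2, a methyltransferase of the large subunit RNA, had 152, 165 and 158 CPM with DMSO, 115, 119.7 and 112 with GDC, 62.6, 59.6 and 59.6 with GSK and 44.8, 45.3 and 47.2 with COMBO. MRTO4, which holds the place of the ribosomal stalk during assembly, had 76.3, 73.9 and 72.5 CPM with DMSO, 59.5, 57.4 and 51.8 with GDC, 28.1, 30.0 and 30.0 with GSK and 24.3, 24.8 and 23.1 with COMBO. None of these 4 genes had overlapping arms. The log2 fold changes in COMBO were -1.96 ± 0.0682 for NOP16 (adjusted p = 6.3e-16), -1.79 ± 0.0504 for NOP2 (adjusted p = 2.31e-17) and -1.62 ± 0.0598 for MRTO4 (adjusted p = 1.63e-15).

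Among the remaining 60S factors, BOP1 fell in GSK and COMBO and did not pass the test in GDC. BOP1, which forms the PeBoW complex with PES1 and WDR12, had 12.1, 15.8 and 14.7 CPM with DMSO, 14.5, 14.5 and 14.4 with GDC, 6.81, 7.75 and 6.87 with GSK and 5.23, 4.88 and 5.10 with COMBO, so that GDC lay within the DMSO range. Its log2 fold change was 0.0013 ± 0.0943 with GDC (adjusted p = 0.993), -1.01 with GSK and -1.51 ± 0.106 with COMBO (adjusted p = 5.08e-11). Its partners PES1 and WDR12 changed by -0.84 and -1.06 in COMBO. PPAN had the lowest counts of the 58 genes, with 1.68, 2.16 and 2.33 CPM with DMSO, 1.50, 1.97 and 1.41 with GDC, 0.769, 0.711 and 1.10 with GSK and 0.987, 0.843 and 0.947 with COMBO, and its symbol shares exons with the readthrough gene PPAN-P2RY11, so its values are uncertain. Among the others (RRS1, EBNA1BP2, NIP7, GRWD1, RRP1B, DDX18, WDR74, GNL2, GNL3, DDX56, FTSJ3 and GNL3L), changes in COMBO ran from -1.60 for RRS1, which brings the 5S particle into the subunit, to -0.68 for the GTPase GNL3L.

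**Figure D3:**
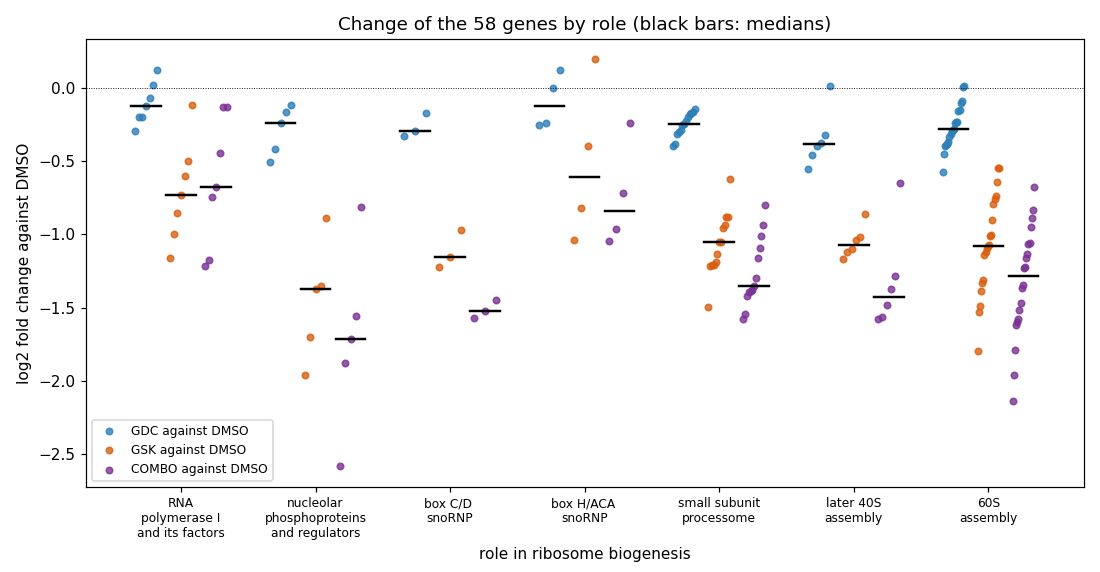
Points are the log2 fold changes of single genes against DMSO in GDC (blue), GSK (orange) and COMBO (purple), by role, with black bars at the medians. GDC medians lie between -0.39 and -0.12, and in every role but RNA polymerase I the COMBO median is below the GSK median.

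To determine what each agent added to the other, COMBO was compared with the single-agent arms. Compared with GDC, all 58 genes were lower in COMBO and 0 were higher, beside 38.0% and 37.9% of all tested genes, with a median log2 fold change of -1.01 against 0.018 over all genes. At an unadjusted p under 0.05, 0 genes were higher by edgeR, and DESeq2 called 0 higher. The range ran from -2.08 ± 0.0563 for TCOF1 to -0.15 ± 0.0434 for UBTF. UBTF changed sign to 0.022 with library totals, and without GDC library C or COMBO library A its adjusted p was 0.0927 or 0.0944. Library totals left 55 genes lower, since TAF1D (-0.0835, adjusted p = 0.234) and NOP10 (-0.0638, adjusted p = 0.322) did not pass the test either. Without GDC library B, PPAN had an adjusted p of 0.069. The replicate letters were taken to pair these 2 arms, from correlations in the data and not from the labels. With the letter as a block in a fit of both arms alone, all 58 genes were again lower.

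Compared with GSK, 38 genes were lower in COMBO, 4 were higher and 16 did not pass the test, beside 26.9% and 19.0% of all genes, with a median of -0.26 against -0.014. EBNA1BP2, a partner of early 60S particles, had the largest drop, from 54.9, 51.3 and 50.4 CPM in GSK to 32.7, 34.0 and 31.0 in COMBO (-0.67 ± 0.0567, adjusted p = 8.55e-09), and TCOF1 and NOP58 followed with -0.62 and -0.55. All 3 box C/D genes, 5 of 6 later 40S factors and 15 of 20 genes of 60S assembly were lower, and so were 7 of 13 processome genes. Of the 15, GNL3L lost its call in 18 of the 19 alternatives, DDX56 in 12 and DDX18 in 11. In the RNA polymerase I group the direction differed, with 1 of 7 genes lower (POLR1C, -0.32) and 3 higher. The 3 were TAF1D (0.37 ± 0.0712, adjusted p = 0.000281), POLR1E (0.26 ± 0.0685, adjusted p = 0.00471) and RRN3 (0.15 ± 0.0553, adjusted p = 0.0286). RRN3 had 109, 106 and 99.2 CPM in GSK and 111, 126 and 111 in COMBO, with no overlap, but without GSK library C or COMBO library B its adjusted p was 0.152 or 0.189. NOB1 was the other gene higher in COMBO (0.21, adjusted p = 0.00591), with an adjusted p of 0.0649 without GSK library C. Calls in this comparison were the least stable of those between pairs of arms, and 32 of the 42 genes called were called in all 19 alternatives.

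The interaction compared the COMBO change with GDC and GSK changes added together on the log2 scale. For 45 of the 58 genes it did not pass the test, 6 were below the sum and 7 above it, beside 16.5% and 4.86% of all tested genes. The median interaction of the 58 was 0.053 and that of all genes -0.063. The reference moved with the settings. Of all genes called in the interaction, 22.7% were above the sum, compared with 35.2% with DESeq2 size factors in edgeR, 39.8% without DMSO library A and 55.4% with no filter (1319 below and 1638 above), where the medians over all genes were -0.0172, 0.00845 and 0.049. Below the sum were BOP1, NHP2, NOP10, EBNA1BP2, NOP58 and GNL2, and above it POLR1E, WDR75, RRS1, RRN3, DDX21, WDR43 and NPM1. POLR1E, the PAF53 subunit of RNA polymerase I, had 68.2, 69.7 and 66.8 CPM with DMSO, 61.9, 57.7 and 58.7 with GDC, 34.2, 31.0 and 37.2 with GSK and 38.1, 41.3 and 42.7 with COMBO, so that COMBO lay between the single agents. Its interaction was 0.46 ± 0.0909 (adjusted p = 0.00115). WDR75, a processome subunit, had 88.8, 87.6 and 91.9 CPM with DMSO, 75.1, 79.3 and 71.0 with GDC, 46.7, 49.96 and 48.9 with GSK and 48.0, 55.7 and 50.03 with COMBO, with overlapping GSK and COMBO libraries and an interaction of 0.33 ± 0.0864 (adjusted p = 0.00888). Below the sum, the interaction was -0.45 ± 0.0653 for NHP2 (adjusted p = 5.35e-05), -0.43 ± 0.0815 for NOP10 (adjusted p = 0.000722) and -0.51 ± 0.159 for BOP1 (adjusted p = 0.028). Of the 13 calls, 7 (POLR1E, WDR75, RRN3, DDX21, NPM1, NHP2 and NOP10) were made in all 18 alternatives, and BOP1 lost its call in 12. The split of the 58 into genes below and above the sum was 6 and 9 with library totals, 6 and 12 with DESeq2 size factors in edgeR, 4 and 14 at a mean of 1 CPM and 2 and 14 with no filter. DESeq2 itself also called BRIX1, HEATR1, NOB1 and DDX18 above the sum, and it did not call BOP1.

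**Figure D4:**
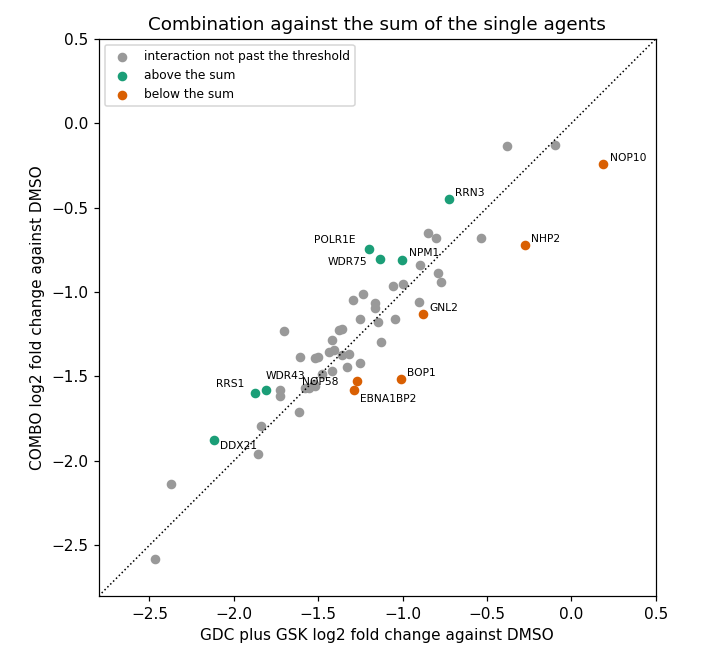
Each point is 1 of the 58 genes, with the sum of its GDC and GSK log2 fold changes on the x axis and its COMBO log2 fold change on the y axis; the dotted line marks equality. The 7 genes above the sum (green) and 6 below it (orange) are named, and the other 45 (grey) did not pass the interaction test.

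Features that the list did not use were then examined. Genes with the hexamer CACGTG in the promoter window had a median log2 fold change of -1.40 in COMBO (18 genes), compared with -1.06 in the 31 genes with a window that lacked it. In GDC and GSK the medians were -0.27 and -1.09 with it and -0.24 and -1.01 without it. The 9 genes without a window were in neither set, and whether they hold the hexamer is not known. They include TCOF1, which had the largest COMBO change of the 58, so these medians do not describe the whole list. Over all tested genes the COMBO medians were -0.054 with the hexamer and 0.022 without it, and single genes with it ranged from -4.05 to 6.97. NOP10, whose window holds the hexamer, had the smallest change of the 18 in COMBO, and BRIX1, whose window lacks it, fell by 2.14 on the log2 scale. Introns of these genes can also host snoRNAs. A snoRNA gene lay inside 10 of the 58 genes (17.2%, 36 snoRNAs in all), compared with 210 of 11710 tested protein-coding genes (1.79%). The 10 were TAF1D with 8, GNL3 with 6, NOP56 with 5, NOP58 with 4, NCL and WDR43 with 3 each, DKC1, TSR1 and PPAN with 2 each, and POLR1C with 1. Their median in COMBO was -1.36, compared with -1.29 in the other 48 genes and -0.16 in all 210 hosts, and the snoRNAs themselves lack polyA tails.

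MYC RNA rose in GDC and COMBO and fell in GSK. It had 249, 263 and 249 CPM with DMSO, 437, 431 and 437 with GDC, 188, 174 and 156 with GSK, and 294, 286 and 294 with COMBO. MYC RNA was thus above DMSO in GDC and COMBO and below it in GSK, with no overlap. These libraries do not measure MYC protein. By immunoblot, the study found less MYC protein with tazemetostat, an EZH2 inhibitor not used in these libraries. The log2 fold change of MYC RNA was 0.78 with GDC (adjusted p = 1.43e-09), -0.56 with GSK (adjusted p = 8.53e-09) and 0.20 with COMBO (adjusted p = 0.00149). The directions held under the 4 other scalings and filters tried.

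Other genes of the pathway were counted from lists written by role. Of 95 other ribosome biogenesis factors, 56 fell and 2 rose in GDC, 90 fell and 4 rose in GSK, and 89 fell and 4 rose in COMBO, with medians of -0.19, -0.73 and -0.94. The largest change in COMBO was that of PAK1IP1 (-2.22), a 60S factor, and the most positive that of POLR1D (0.83), a small subunit of RNA polymerases I and III. All 23 tested genes of the exosome and RNase MRP, which trim and cut ribosomal RNA precursors, fell in GSK and COMBO (medians -0.64 and -0.89), with EXOSC8 lowest at -1.81 in COMBO. Among 22 genes of RNA polymerase III and its factors, 16 fell and 2 rose in COMBO (median -0.57), and POLR3G fell by 2.57 on the log2 scale. The 7 tested subunits particular to RNA polymerase II also fell in COMBO, with a median of -0.67. Beside these counts, 20.0% of all tested genes fell and 20.0% rose in GDC. The shares were 35.7% and 40.0% in GSK, and 39.2% and 43.3% in COMBO. The lists were chosen with earlier results of these data known, and no test compared them with each other.

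Cytosolic ribosomal protein genes did not share the fall of the assembly factors. Of 76 tested, 55 rose and 1 fell in GDC, 46 rose and 7 fell in GSK, and 37 rose and 13 fell in COMBO, with medians of 0.16, 0.14 and 0.087. The COMBO median ran from 0.038 with no filter to 0.296 with library totals, where 65 genes rose and 5 fell. With library totals 7477 of all 14189 tested genes rose in COMBO and 4342 fell. RPL13A was highest in COMBO (1.15) and RPS26 lowest (-1.19), and ribosomal protein genes have many processed copies, which makes single values uncertain. Below the sum of the single agents were 52 of the 76, beside 16.5% of all tested genes. Of 20 p53 target genes, a pathway known to respond to disturbed ribosome assembly, 8 rose and 9 fell in COMBO, from -2.07 for AEN to 2.63 for SESN1, beside 43.3% of all tested genes higher and 39.2% lower.

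**Figure D5:**
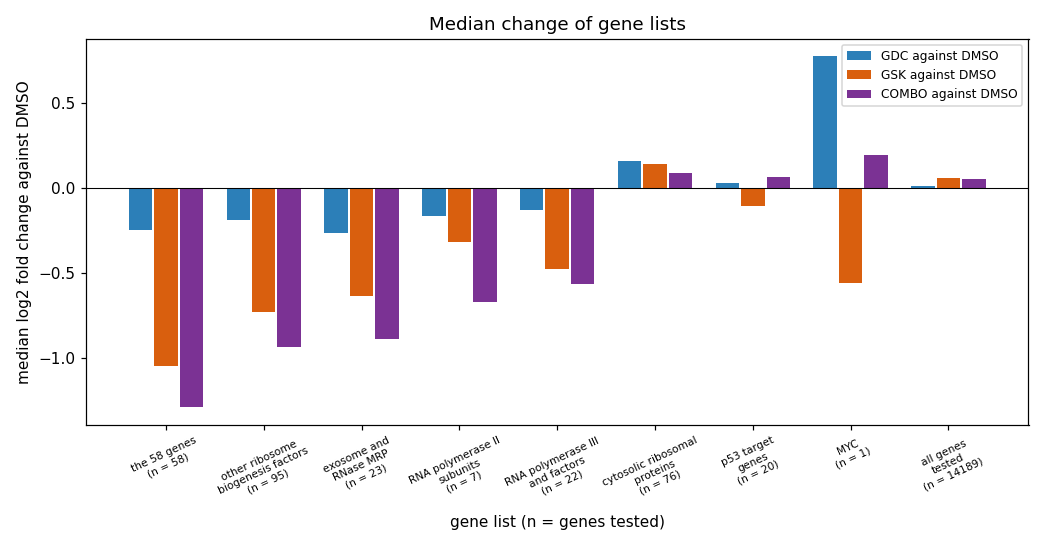
Bars are the median log2 fold change against DMSO of each gene list in GDC (blue), GSK (orange) and COMBO (purple), with the number of tested genes under each list. Assembly factor and RNA polymerase lists lie below 0 in all 3 arms, the 76 ribosomal protein genes above 0, and MYC at 0.78, -0.56 and 0.20.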

How the data were processed

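PolyA RNA of C4.2B cells was sequenced in 12 libraries, 3 in each of 4 arms, and groups were taken from the sample labels. The authors aligned reads to hg38 with STAR and counted them per gene with HTSeq, and the deposited counts are raw whole numbers for each gene symbol. Tool versions, gene annotation and strand handling are not given in the sources used here. The deposited table of values divided by DESeq2 size factors was not used here, and 0 columns of unmapped samples were found. The 5 summary lines of each file entered neither library sizes nor tests. Gene counts were 8785218 to 44437751 per library, and a count of 0 allows up to 3 counts (0.0675 to 0.341 CPM, counting error only). Replicates differed by more than sampling noise. Deviations from the arm means correlated by over 0.1 in every same-lettered pair of GDC and COMBO (0.244, 0.404 and 0.146) but not in the 5 other pairs of arms (-0.313 to 0.289), so the letters were taken to pair these 2 arms, from the data and not from the labels.

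Genes were kept by filterByExpr (14189), scaled by TMM and tested with edgeR 4.0.16 in R 4.3.3 (glmQLFit, glmQLFTest, two-sided, Benjamini-Hochberg over all tested genes, threshold 0.05), with all 12 libraries in 1 fit, 1 coefficient per arm and no covariate. The interaction is COMBO minus GDC minus GSK plus DMSO. In simulated counts for COMBO against DMSO (13919 genes), 94 to 96% of genes changed by 0.5 on the log2 scale and 100% of those changed by 1 were recovered. The simulation changed 50 genes per size and direction, in COMBO alone, and none of low counts. In the data 5555 genes were lower and 6148 higher in COMBO, so these rates need not hold there.

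The 58 genes, the role groups and the other lists were chosen with earlier results of these data known. Some markers of the luminal list are not reported here. Values in every library are given for the genes with the largest change in COMBO in each role (4 in 60S assembly, 3 in the processome, 2 elsewhere), those called against the majority, the 2 largest interactions in each direction and those not called in COMBO. UBTF, NOB1, PPAN, EBNA1BP2 and RRN3 were added after their values were seen, EBNA1BP2 and RRN3 with their GSK and COMBO libraries only. Coordinates are from GENCODE 44 (hg38), and promoter windows from RefSeq (GRCh38.p14). By that annotation 17 of the 58 genes overlap a counted exon of another gene and 15 have named pseudogenes. Alternatives were DESeq2 1.42.0, its size factors within edgeR, scaling by library totals, keeping all genes with a count, keeping genes with a mean of 1 CPM or more, fitting the compared arms only, a replicate block and leaving out each library.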

Additional observations from a re-analysis of the deposited data

Results flagged for a closer look

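For 13 of the 58 genes the GDC-0941 effect differed with and without GSK126, by the interaction in edgeR's quasi-likelihood test (adjusted p under 0.05 over 14189 genes). They were 6 below the sum and 7 above it, beside 16.5% and 4.86% of all tested genes. Above the sum of the single agents were POLR1E (0.455 on the log2 scale, adjusted p = 0.00115), WDR75 (0.334, adjusted p = 0.00888), RRN3 (0.276, adjusted p = 0.0137), DDX21 (0.241, adjusted p = 0.0116) and NPM1 (0.194, adjusted p = 0.0135). Each of these 5 kept its call in all 18 alternatives. RRS1 (0.276, adjusted p = 0.0282) lost it in 2, without GSK library C and without COMBO library B. WDR43 (0.23, adjusted p = 0.0318) lost it without COMBO library B (adjusted p = 0.0791). Other genes gained a call above the sum in some alternatives. With DESeq2 they were BRIX1 (0.276, adjusted p = 0.0284), HEATR1 (0.263, adjusted p = 0.0287), NOB1 (0.244, adjusted p = 0.0401) and DDX18 (0.19, adjusted p = 0.0419). BRIX1 was also called with library totals (0.253, adjusted p = 0.0353).

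Below the sum, NHP2 (-0.447, adjusted p = 5.35e-05) and NOP10 (-0.43, adjusted p = 0.000722), both proteins of the box H/ACA particle, kept their calls in all 18 alternatives. NOP58 (-0.257, adjusted p = 0.0128), a box C/D protein, lost its call in 10 of the alternatives, where its adjusted p-values were 0.0515 to 0.199. The 60S factors BOP1 (-0.506, adjusted p = 0.028), EBNA1BP2 (-0.291, adjusted p = 0.00853) and GNL2 (-0.253, adjusted p = 0.0067) lost theirs in 12, 9 and 8, with adjusted p-values up to 0.18, 0.172 and 0.201.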

How the results depend on the processing

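Of the 58 genes, 50 kept their call for GDC, 56 for GSK and 55 for COMBO against DMSO, and 54 and 43 for COMBO against GDC and GSK, under all 19 alternatives, and 43 in the interaction under all 18. UBTF turned from lower to uncalled positive values with library totals in GSK, in COMBO and when COMBO was set against GDC, and no other gene changed sign with a call. Library totals raise the median of all genes to 0.212 for GSK, 0.261 for COMBO and 0.191 for COMBO against GDC, and with them 64.0% and 63.3% of all calls were higher in GSK and COMBO, compared with 52.8% and 52.5%.

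The median log2 fold change of the 58 genes in GDC was -0.29 with DESeq2, -0.288 with its size factors in edgeR, -0.212 with library totals, -0.309 with no filter and -0.278 at 1 CPM. In GSK it was -1.09, -1.08, -0.891 and -1.13 under the first 4 of these. In COMBO it was -1.33, -1.32, -1.08, -1.34 and -1.26, and -1.32 with the compared arms only. Against GDC it was -0.834 with library totals and -0.942 at 1 CPM, and against GSK -0.207 with library totals and -0.229 both with no filter and at 1 CPM. The 1 gene called higher in GDC (NHP2) became 0 with DESeq2, its size factors, no filter, 1 CPM and the replicate block, and the 1 called higher in GSK (NOP10) became 0 with no filter. For the interaction, genes above the sum numbered 11 with DESeq2, 12 with its size factors, 14 with no filter and 14 at 1 CPM, those below it 2 with no filter, and the median was 0.0951, 0.0981, 0.147 and 0.115. The causes of these shifts were not tested.

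Leaving out 1 library gave, for genes lower, higher and the median, 44 to 49, 0 to 1 and -0.306 to -0.255 in GDC, 56 to 57, 0 to 1 and -1.11 to -1.04 in GSK, and 57 to 58, 0 to 0 and -1.34 to -1.26 in COMBO. It gave 57 to 58, 0 to 0 and -1.02 to -0.961 against GDC, and 31 to 39, 2 to 5 and -0.27 to -0.198 against GSK. Genes below the sum were 2 (without DMSO library A) to 6, those above it 6 to 13 (without GSK library A), and the median interaction was 0.0385 to 0.14. The lowest count of genes higher than in GSK, 2, was without GSK library C.

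The replicate letters were taken to pair GDC with COMBO and no other arms, from correlations in the data and not from the labels. With the replicate block over all arms, 45 genes were lower in GDC, 57 in GSK, 57 in COMBO, 58 against GDC and 39 against GSK, and 6 and 7 were below and above the sum. The block in a fit of GDC and COMBO alone, chosen after seeing the data, also gave 58 lower, and it changed no call of COMBO against GDC among the 58.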

Other observations

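Of 6 small subunits found in more than 1 nuclear RNA polymerase, 5 fell and 1 rose in COMBO compared with DMSO. Of all tested genes, 39.2% fell and 43.3% rose. The median log2 fold change of the 6 was -0.67. POLR2H was lowest (-1.07) and POLR1D highest (0.83). POLR1D belongs to RNA polymerases I and III only, and it is also counted among the 95 other ribosome biogenesis factors. In GSK 4 fell and 1 rose (median -0.21), with library totals 2 fell and 2 rose, and in GDC 1 fell and 1 rose (median -0.07). Of all tested genes, 35.7% fell and 40.0% rose in GSK, and 20.0% fell and 20.0% rose in GDC. In the interaction, 4 of the 6 were below the sum of the single agents, beside 16.5% of all tested genes, with POLR2L at -0.58.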
